A study of Mus musculus with 8 samples.

Results

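Interferon-stimulated genes were followed by name in 8 RNA libraries of cultured mouse bone marrow cells. The set holds 43 of the 27710 genes listed in the files. It was chosen by gene symbol from a fixed list, with earlier results of these data known. It divides into 35 genes of the type I interferon arm and 8 of the interferon gamma arm, a split by main inducer, since many of these genes answer to both. All 43 symbols were present in every library.

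Lineage-depleted bone marrow, which is marrow cleared of mature blood cells, was grown with stem cell factor, thrombopoietin, Flt3 ligand and interleukin-3. WT libraries came from 3 samples fed the nucleoside 4-thiouridine (s4U) at 100 µM for 2 hours and 1 sample given no agent. The other libraries, in the same numbers, carried the genotype Vav-iCre+; Alkbh5fl/fl, in which a recombinase active across blood cells removes the floxed Alkbh5 gene, and are called Alkbh5-deficient here. The sources used here do not state whether the WT cells carried Vav-iCre or floxed alleles, how old the mice were, or whether each replicate came from a separate mouse. The p-values therefore set each difference only against the spread between these samples, which may not be the spread between mice. ALKBH5 removes a methyl group from N6-methyladenosine in RNA.

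Type I interferons bind a receptor on the cell surface and activate the factor complex ISGF3, which includes STAT2 and IRF9 and binds interferon-stimulated response elements beside its target genes. Interferon gamma acts through a separate receptor, through gamma-activated sites beside its target genes and through the induced factor IRF1. Target genes of both arms encode sensors and destroyers of foreign RNA, antiviral proteins and large GTPases, and blood stem and progenitor cells respond to both interferons.

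Gene totals ranged from 5723245 to 8615997 counts per library. Reads assigned to no gene made up 37.6% and 38.3% of counts in both fed replicate 1 libraries and 48.9% to 52.1% in the other 6. WT fed replicate 3 had the lowest total and held 14.2% of its gene counts in the ribosomal-repeat gene Gm26917, against 6.33% to 8.34% elsewhere. The X-inactivation RNA Xist had 17471 and 13896 counts in both fed replicate 2 libraries, where the Y-linked gene Ddx3y had 0, whereas fed replicates 1 and 3 had 0 to 2 counts of Xist and 200 to 552 of Ddx3y. Each fed group thus held 1 library with female and 2 with male transcripts, and its replicates did not all come from 1 animal. Alkbh5 had 1166, 1479 and 1061 counts in the WT fed libraries and 0, 1 and 1 in the Alkbh5-deficient fed libraries (edgeR adjusted p = 7.91e-06), with 1263 and 1 in the unlabelled pair. All 10 progenitor markers, among them Kit, Cd34 and Flt3, were above 0 in every library.

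Promoter sequence was taken from the RefSeq table (GRCm38.p6), which gives 300 bases around each gene's start and matched 33 of the 43 members. The response element was searched as GAAA, any 2 bases (NN) and GAAA again, on both strands, and was present in 18 of 33 members (54.5%), against 3.99% of the 27025 genes in the table. The gamma-activated site was searched as TTCNNNGAA, which reads the same on both strands, and was present in 9 of 33 members (27.3%) against 9.55% of all genes. By arm, the response element was found in 13 of 26 type I members and 5 of 7 gamma members. A match describes these letters and does not show that a factor bound there.

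The stretches below belong to members described in the results and are written along the strand of the gene, with motif matches in capitals. They come from chr19:34640765-34640833 (plus strand) for Ifit1, chr4:156200855-156200916 (minus) for Isg15, chr5:120777705-120777754 (minus) for Oas3, chr3:142620584-142620633 (plus) for Gbp2, chr11:48871421-48871470 (minus) for Irgm1, chr11:58199491-58199551 (plus) for Igtp and chr11:53769904-53769952 (plus) for Irf1.
Ifit1: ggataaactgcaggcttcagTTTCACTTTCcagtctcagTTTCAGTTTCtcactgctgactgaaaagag
Isg15: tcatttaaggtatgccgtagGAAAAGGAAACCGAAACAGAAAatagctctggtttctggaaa
Oas3: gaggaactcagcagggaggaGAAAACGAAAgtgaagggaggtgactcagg
Gbp2: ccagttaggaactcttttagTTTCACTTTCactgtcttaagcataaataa
Irgm1: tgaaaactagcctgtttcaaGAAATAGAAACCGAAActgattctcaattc
Igtp: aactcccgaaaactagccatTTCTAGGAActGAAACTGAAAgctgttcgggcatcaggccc
Irf1: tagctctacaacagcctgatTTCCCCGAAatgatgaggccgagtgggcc
Ifit1, Isg15, Oas3, Gbp2 and Irgm1 show the response element, in either orientation and in places as overlapping copies. Igtp shows a gamma-activated site followed by a response element, and the Irf1 stretch shows a gamma-activated site.

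The members were expressed without added interferon, over a wide range. Levels compared between genes are given as RPKM, the normalized CPM (gene counts scaled to a common library size) divided by the summed exon length in kilobases and averaged over the 6 fed libraries. The median member stood at 5.43 RPKM, 38 of 43 members were at 1 RPKM or more and 23 were at 5 or more. The highest were the GTPase gene Gbp3 at 30.6 RPKM, Bst2, which encodes the virus tether tetherin, at 29.8, and Ifi27l2a at 26.5. Next came Ifi35 at 20.01, Irf1 at 17.7, the ubiquitin ligase gene Dtx3l at 14.2, the RNA editing enzyme gene Adar at 13.7 and the nuclear body gene Sp100 at 13.6.

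At the low end, Ifit3 stood at 0.961 RPKM, Oas2 at 0.79 and the GTPase gene Iigp1 at 0.738. Ifit3b had 4, 4 and 3 counts in the WT fed libraries and 0, 1 and 3 in the Alkbh5-deficient fed libraries. Ifi44 had 5, 13 and 3 counts in WT and 6, 9 and 10 in Alkbh5-deficient libraries. Both fell under the low-count filter, which leaves 41 members in the genotype test, 33 of the type I arm and 8 of the gamma arm. Ifit3 and Ifit3b, and some of the Oas and Gbp genes, have near-identical relatives, so the division of reads among such relatives is uncertain. How alike the members are was not measured here.

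The genotype comparison asks which transcripts differ in level when ALKBH5 is lost. Most members had lower levels in Alkbh5-deficient fed cells, but none passed the test on its own. By edgeR, 0 of 41 members had an adjusted p under 0.05, against 0.0075% of all 13342 genes tested, which was Alkbh5 alone. DESeq2 called 0 of 43 members as well, against 0.00803% of 24907 genes. On simulated counts the edgeR fit recovered 23% of true log2 differences of 1, so the absence of calls does not show that members were unchanged. The simulated differences were placed only in genes above a set mean level. Ifit1, Ifit3, Oas2, Usp18 and Iigp1 lay below that level, so the share does not apply to them. An unadjusted p under 0.05 was reached by 6 members in edgeR, all lower, against 1.13% of all genes tested, with 0.735% lower. In DESeq2 it was reached by 4 of 43 members, against 0.57% of all genes listed, those without counts included. With the replicate number as a block, 9 members reached it, against 2.65% of all genes. The 6 without the block were Ifit1, Oasl1, Gbp2, Irgm1, Oasl2 and Irf1.

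The fitted log2 fold change (Alkbh5-deficient over WT) was negative for 35 of 41 members (85.4%), against 49.8% of all genes tested. Its median was -0.37 over the members and 0.00 over all genes. Both arms lay on the same side, with 27 of 33 type I members negative and a median of -0.36, and 8 of 8 gamma members negative and a median of -0.41. Without WT fed replicate 1, 27 of 41 members were negative and the median was -0.24, with -0.20 for the type I arm. Without Alkbh5-deficient fed replicate 3 the type I median was -0.15, and without WT fed replicate 3 the gamma median was -0.23. In bulk RNA, fewer cells that express these genes and less RNA per cell cannot be told apart.

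Every Alkbh5-deficient fed library lay below every WT fed library for 10 of 41 members (24.4%), against 3.06% of all genes. These were Ifit1, Oasl1, Oasl2, Oas3, Irf7, Usp18, Ifih1 and Ifi35 of the type I arm and Irf1 and Irgm1 of the gamma arm. The opposite order was found for 0 members and 2.62% of all genes. With WT fed replicate 2 left out the count was 19 members against 10.4% of all genes, and with Alkbh5-deficient fed replicate 3 left out it was 10 against 4.59%.

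**Figure D1:**
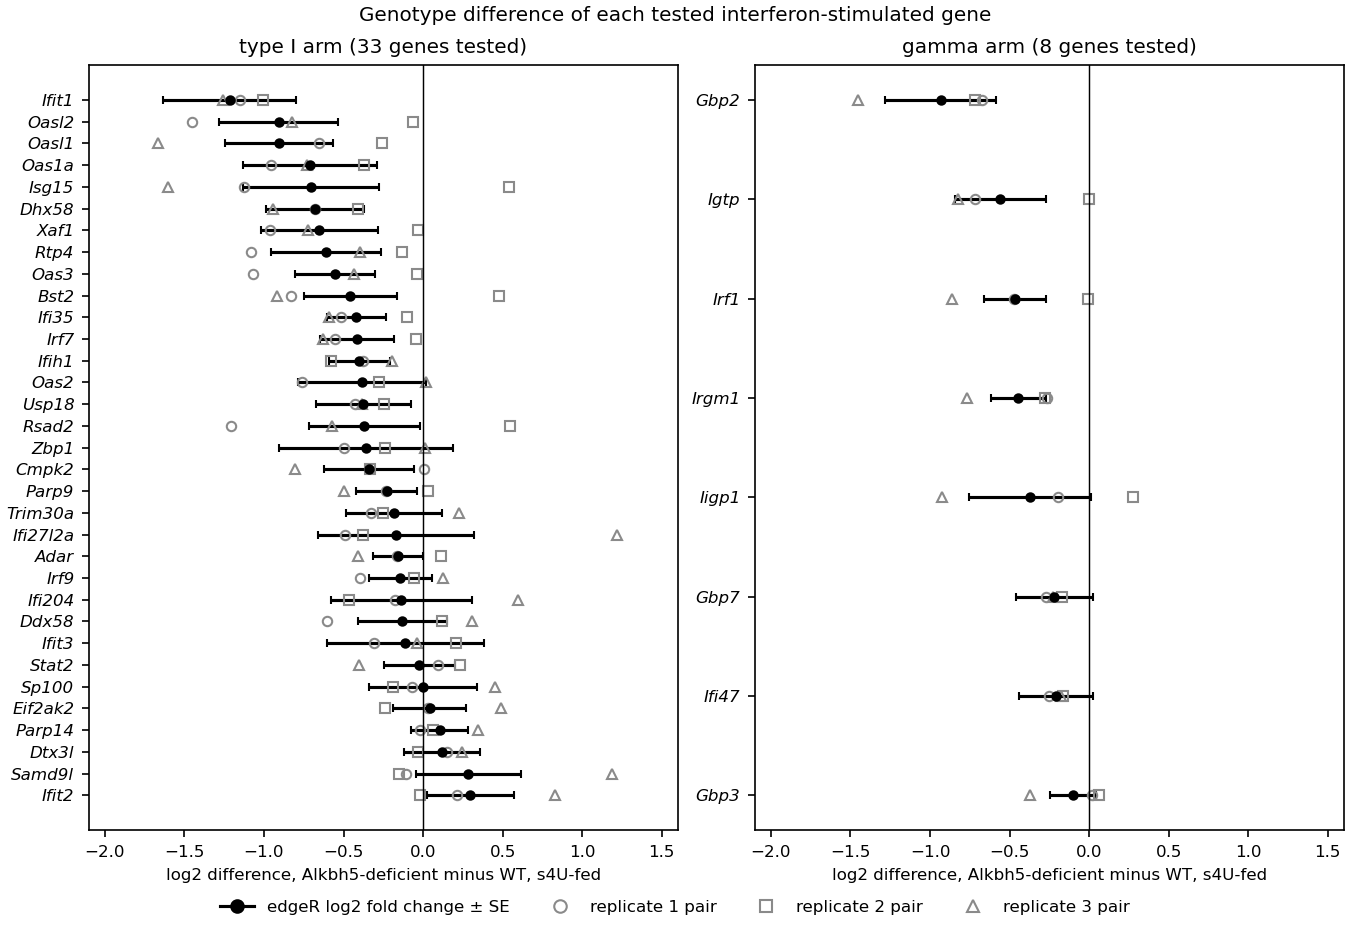
Each row is 1 tested member and the horizontal axis is the log2 difference between Alkbh5-deficient and WT fed cells; black points are edgeR log2 fold changes with 1 standard error, and open grey symbols are the differences of the 3 same-numbered pairs. Points lie left of 0 for 27 of 33 type I members and 8 of 8 gamma members, and the pair symbols of single genes are spread widely.

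Ifit1, whose product binds RNA with foreign cap structures, had the largest fitted difference. Its level was 4.32, 4.95 and 8.73 CPM in WT fed replicates 1 to 3 and 1.79, 2.32 and 3.50 CPM in the Alkbh5-deficient ones, so the groups did not overlap. The means were 6.0 ± 2.38 and 2.54 ± 0.873 CPM (SD, n = 3 each), and the fit gave a log2 difference of -1.22 with a standard error of 0.42, as for all errors of fitted values here (edgeR adjusted p = 1.00). The count behind these values was small, 171 over the 6 libraries. Among its relatives, Ifit3b was also lower in each fed pair, but from 15 counts in all, whereas Ifit2 and Ifit3 had fitted differences near 0 or above it. Ifit2 was at 10.1, 10.2 and 6.01 CPM in WT and 11.8, 10.1 and 10.9 CPM in Alkbh5-deficient cells, with a log2 fold change of 0.30 ± 0.27. Ifit3 gave -0.11 ± 0.49 from 69 counts.

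The OAS genes encode enzymes that make short oligoadenylates, the activators of RNase L, and enzyme-like relatives. All 5 had negative log2 fold changes, with a median of -0.71. Oasl1, which encodes a relative known to repress translation of Irf7 mRNA, was at 9.31, 10.8 and 18.4 CPM in WT and 5.83, 9.02 and 5.62 CPM in Alkbh5-deficient fed libraries. The difference was -0.91 ± 0.34 (edgeR adjusted p = 1.00) and was largest in the replicate 3 pair, with -0.56 without WT fed replicate 3. Oasl2 was at 34.4, 13.1 and 15.9 CPM in WT and 12.4, 12.6 and 8.87 CPM in Alkbh5-deficient libraries. The groups did not overlap, but WT replicate 1 was far above the other WT libraries, and the log2 fold change of -0.91 ± 0.37 (edgeR adjusted p = 1.00) was -0.37 without it. Oas3 showed the same high library, with 24.4, 14.6 and 16.5 CPM in WT against 11.5, 14.2 and 12.1 CPM, a difference of -0.55 ± 0.25 (edgeR adjusted p = 1.00) that was -0.30 without it.

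The remaining enzymes of this family also lay lower, with overlapping groups. Oas1a was at 23.4, 18.3 and 9.31 CPM in WT and 11.95, 14.1 and 5.50 CPM in Alkbh5-deficient cells, lower in each same-numbered pair although the replicates themselves ranged widely. Oas2 gave -0.38 ± 0.40.

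Among the transcription factors, all 4 had negative values with a median of -0.28, but of different size. Irf1, the main secondary factor of the gamma response, was at 75.3, 67.0 and 103 CPM in WT and 54.2, 66.5 and 56.4 CPM in Alkbh5-deficient fed libraries. The groups nearly met in the replicate 2 pair, and the fit gave -0.47 ± 0.19 (edgeR adjusted p = 1.00), or -0.27 without WT fed replicate 3. Irf7, the factor that amplifies type I interferon production, was at 44.0, 31.1 and 31.0 CPM against 29.9, 30.1 and 19.99 CPM, a log2 fold change of -0.42 ± 0.23. The ISGF3 subunit genes were closer to 0, with Irf9 at -0.14 ± 0.20 and Stat2 at -0.02 ± 0.22.

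The 5 nucleic acid sensors were all on the negative side, with a median of -0.36. Ifih1, which encodes the double-stranded RNA sensor MDA5, was at 21.8, 27.7 and 22.5 CPM in WT and 16.7, 18.4 and 19.6 CPM in Alkbh5-deficient cells, without overlap and with a log2 fold change of -0.40 ± 0.19. Dhx58, which encodes its regulator LGP2, was at 22.6, 15.0 and 14.0 CPM against 14.0, 11.2 and 7.12 CPM, a difference of -0.68 ± 0.31. Ddx58, which encodes the sensor RIG-I, gave -0.13 ± 0.28. The DNA sensor gene Ifi204 gave -0.14 ± 0.44 and Zbp1, whose product senses Z-form nucleic acids, -0.36 ± 0.55. The width of the last pair of errors came from the replicates. Zbp1 was at 33.4, 11.97 and 8.92 CPM in WT and 23.6, 10.1 and 8.996 CPM in Alkbh5-deficient libraries, so that replicate 1 stood highest in both genotypes.

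Isg15 encodes a ubiquitin-like protein that is attached to other proteins, and Usp18 encodes the protease that removes it and also damps type I receptor signalling. Isg15 was at 8.48, 4.60 and 8.53 CPM in WT and 3.73, 6.83 and 2.62 CPM in Alkbh5-deficient cells, lower in pairs 1 and 3 and higher in pair 2. The fitted difference was -0.70 ± 0.43. Usp18 varied little, with 4.32, 4.26 and 4.66 CPM against 3.14, 3.55 and 3.50 CPM, and gave -0.38 ± 0.30.

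The ADP-ribosyltransferase genes Parp9 and Parp14 and the Parp9 partner gene Dtx3l lay around 0. Parp14 was at 78.5, 69.6 and 53.5 CPM in WT and 77.2, 72.7 and 68.1 CPM in Alkbh5-deficient libraries, a log2 fold change of 0.11 ± 0.18. Dtx3l gave 0.12 ± 0.24, a sign that turned to -0.10 without Alkbh5-deficient fed replicate 1, and Parp9 gave -0.23 ± 0.19. Exons of Parp9 and Dtx3l overlap over 458 bases on opposite strands, and the sources used here do not state whether strand was used in counting. Reads left ambiguous because they matched several genes numbered 0 for both over the 8 libraries.

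Effectors that act on RNA or nucleotides were split, with 3 of 5 negative and a median of -0.16. The antiviral radical enzyme gene Rsad2 gave -0.37 ± 0.35 and the nucleotide kinase gene Cmpk2 -0.34 ± 0.28. Eif2ak2, which encodes the kinase PKR, gave 0.04 ± 0.23, and the growth-restricting gene Samd9l gave 0.28 ± 0.33. Adar was close to level, at 126, 102 and 122 CPM in WT and 113, 111 and 91.8 CPM in Alkbh5-deficient cells (-0.16 ± 0.16, and between -0.24 and -0.08 with single libraries left out). A part of Adar's exons, 16.8%, overlaps Chrnb2 on the opposite strand, and 0 reads were left ambiguous for Adar.

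Of the 7 other type I members, 6 were negative, with a median of -0.42. Ifi35 was at 39.4, 32.9 and 46.4 CPM in WT and 27.5, 30.6 and 30.6 CPM in Alkbh5-deficient cells, without overlap and with a log2 fold change of -0.42 ± 0.18 (edgeR adjusted p = 1.00). Exons of Ifi35 overlap the antisense gene Gm11626 over 290 bases, and 0 reads were left ambiguous for Ifi35. Bst2 was at 32.1, 20.1 and 41.5 CPM against 17.9, 28.1 and 21.9 CPM (-0.46 ± 0.29), lower in pairs 1 and 3 and higher in pair 2, as for Isg15. The value was -0.20 without WT fed replicate 3 and -0.70 without WT fed replicate 2. Xaf1 gave -0.65 ± 0.37, Rtp4 -0.61 ± 0.34 and Trim30a -0.18 ± 0.30. Sp100 was at 149, 99.8 and 59.4 CPM in WT and 141, 87.6 and 81.3 CPM in Alkbh5-deficient libraries (0.00 ± 0.34), and Ifi27l2a was at 19.6, 15.2 and 3.88 CPM against 13.9, 11.6 and 9.37 CPM (-0.17 ± 0.49). In both, WT replicate 3 was the lowest of the 6 fed libraries, and both changed sign when single libraries were left out.

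The gamma arm is made up, beside Irf1, of GTPases that act on membranes around microbes inside cells, and all 7 of these had negative log2 fold changes, with a median of -0.37. Gbp2, a guanylate-binding protein gene, was at 38.2, 19.7 and 32.6 CPM in WT and 23.9, 11.9 and 11.7 CPM in Alkbh5-deficient fed libraries. The groups overlapped, but the Alkbh5-deficient member of each same-numbered pair was lower, by log2 differences of -0.67, -0.71 and -1.45. The means were 30.2 ± 9.51 and 15.8 ± 6.98 CPM (SD, n = 3 each) and the log2 fold change was -0.93 ± 0.35 (edgeR adjusted p = 1.00). Irgm1, which regulates the other immunity-related GTPases, was at 33.6, 34.0 and 41.5 CPM in WT and 27.9, 28.0 and 24.2 CPM in Alkbh5-deficient cells. These groups did not overlap, and the fit gave -0.45 ± 0.17 (edgeR adjusted p = 1.00).

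The other GTPase genes had smaller differences or wider errors. Igtp gave -0.56 ± 0.29, Iigp1 -0.37 ± 0.38, Gbp7 -0.22 ± 0.24 and Ifi47 -0.21 ± 0.23. Gbp3, the most abundant member, was nearly level at 102, 94.4 and 114 CPM in WT and 103, 98.7 and 88.0 CPM in Alkbh5-deficient libraries (-0.10 ± 0.15). Gbp7 shares 637 exon bases with the pseudogene Gm43802. Reads left ambiguous between them numbered 336 over the 8 libraries, beside 2659 counted for Gbp7, so its count may be incomplete.

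**Figure D2:**
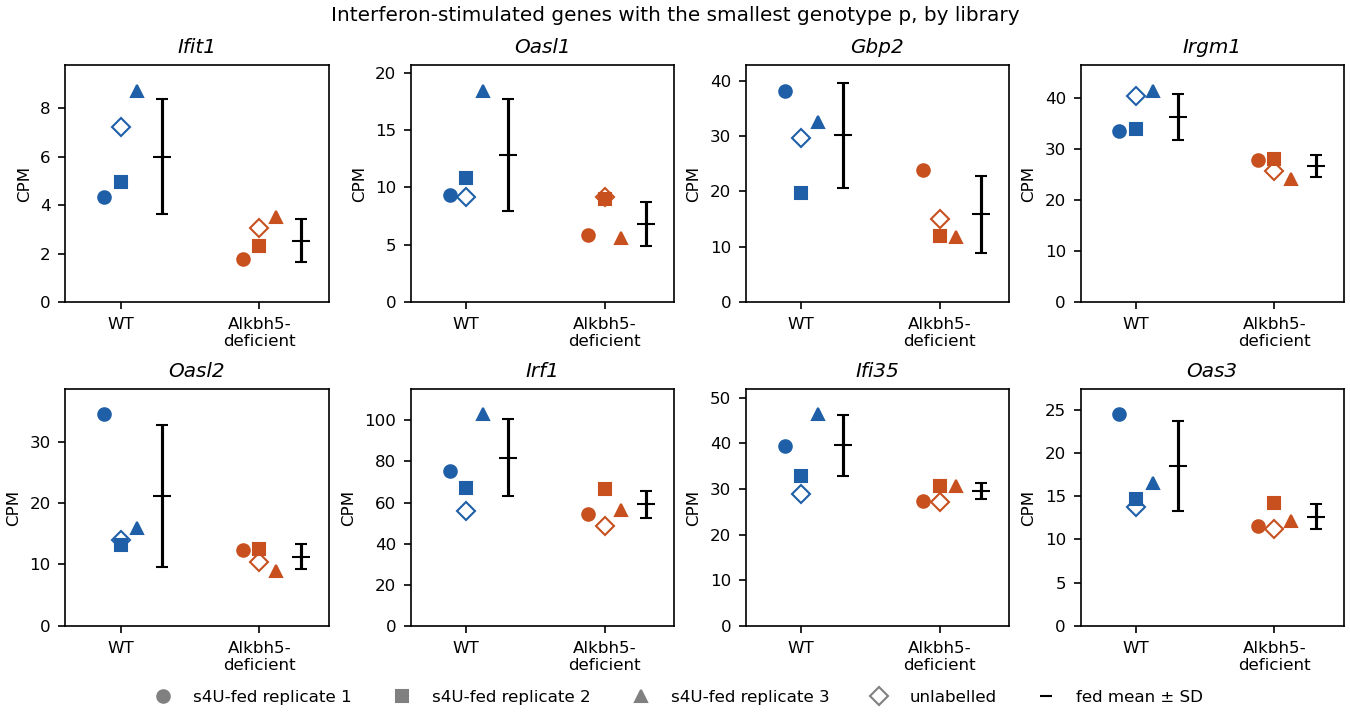
CPM in each library for the 8 members with the smallest edgeR p in the genotype comparison; filled symbols are fed replicates, open diamonds the unlabelled libraries, and bars the fed mean with 1 SD. The fed groups are separate in 7 panels and overlap for Gbp2.

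Members were also compared within same-numbered pairs, as differences of log2 CPM with a prior count of 2. The Alkbh5-deficient library was lower in all 3 pairs for 18 of 41 members (43.9%; 12 type I and 6 gamma), against 11.5% of all genes. It was higher in all 3 pairs for 0 members, against 11.7% of all genes. The pairs were unequal. The median member difference was -0.43 in pair 1, -0.10 in pair 2 and -0.40 in pair 3, beside medians of 0.02, 0.00 and -0.01 over all genes. Pair 2 is the pair with female transcripts, so pair number and sex cannot be told apart.

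The arms differed in which pair carried the largest difference. The type I median was -0.49, -0.10 and -0.39 in pairs 1 to 3, and the gamma median was -0.27, -0.09 and -0.80. Whether the arms differ was not tested. Lower values in the Alkbh5-deficient library were found for 35, 30 and 28 of 41 members in pairs 1 to 3.

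Single libraries also stood apart when each member was set against its own mean over the 8 libraries. The type I median deviation (log2) was 0.49 in WT fed replicate 1, while WT replicates 2 and 3 were at 0.03 and -0.02. The Alkbh5-deficient fed replicates were at 0.00, -0.03 and -0.30. By this median, type I levels were high in 1 WT library and low in 1 Alkbh5-deficient library, with the medians of the other 4 fed libraries close together. Single members were not: WT fed replicate 3 was the lowest fed library for 12 of 33 type I members and the highest for 6.

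The gamma median deviation was 0.16, -0.09 and 0.35 in WT fed replicates and -0.09, -0.13 and -0.19 in Alkbh5-deficient fed replicates. Among the 6 fed libraries, the highest was WT replicate 1 for 22 members, WT replicate 3 for 11 and WT replicate 2 for 3. The lowest was Alkbh5-deficient replicate 3 for 17, WT replicate 3 for 12 and Alkbh5-deficient replicate 1 for 10. WT replicate 3 therefore held both high and low extremes, and it is also the library with the most Gm26917.

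**Figure D3:**
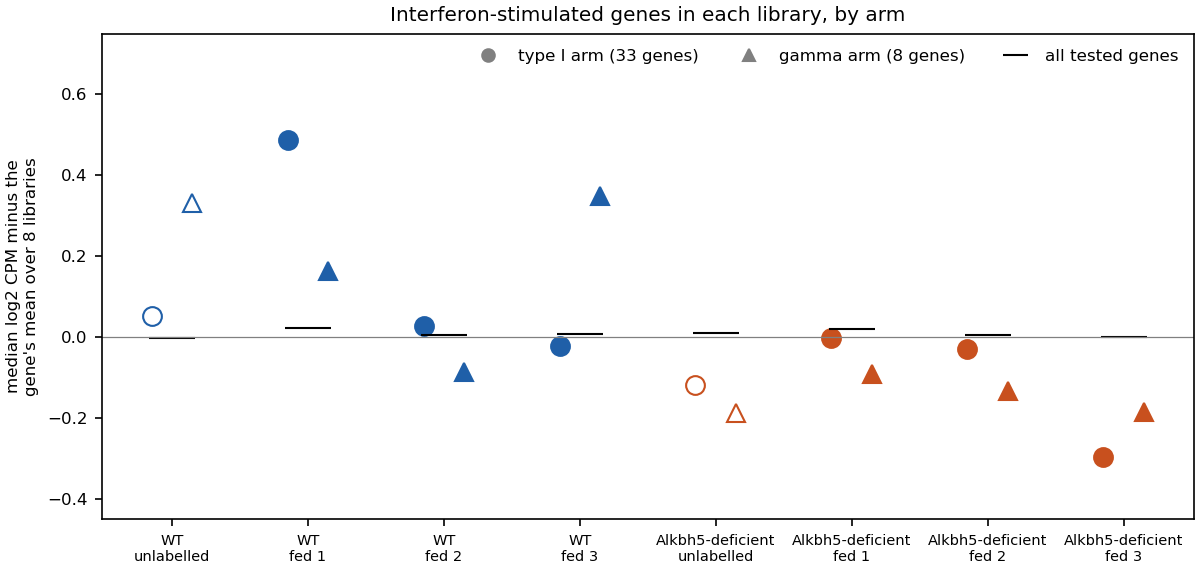
Median over the 33 type I members (circles) and 8 gamma members (triangles) of log2 CPM minus the gene's own mean over 8 libraries, for each library; open symbols are unlabelled and dashes are all tested genes. The type I circle of WT fed replicate 1 is highest at 0.49 and that of Alkbh5-deficient fed replicate 3 lowest at -0.30.

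The unlabelled libraries, 1 per genotype and without replicate check, gave a second set of values that the fed fit did not use. Both held transcripts of both sexes. Whether their cells came from the same mice as the fed ones is not stated in the sources used here. The level in the Alkbh5-deficient library was below that in WT for 37 of the 41 members tested in the fed cells (90.2%), against 46.9% of all genes, and the median log2 difference was -0.21. Of 42 members with at least 20 counts in the pair, 5 were lower by more than 1.5-fold, against 4.71% of 13762 genes, and 1 was higher, against 4.59%. The 95% counting interval, which covers counting error only, lay wholly below 100% of WT for 14 members, against 7.42% of genes, and wholly above for Stat2 alone, against 9.32%.

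The 5 members lower by more than 1.5-fold were Ifit1, Gbp2, Iigp1, Irgm1 and Zbp1. The 1 higher was Ifi44, with 10 counts in WT and 19 in the Alkbh5-deficient library, or 160% of WT (70.6% to 384%). Ifit3b, with too few counts for this comparison, had 1 count in WT and 5 in the Alkbh5-deficient library. Neither Ifi44 nor Ifit3b was tested by edgeR in the fed cells. Ifit1 was at 7.25 CPM in WT and 3.05 CPM in the Alkbh5-deficient library, or 42.0% of WT (25.7% to 67.3%). Gbp2 was at 29.6 and 15.0 CPM, or 50.6% (40.7% to 62.8%), and Irgm1 at 40.4 and 25.8 CPM, or 63.8% (53.7% to 75.8%). For these genes the unlabelled difference was about as large as the fed one, where the mean was 42.3%, 52.5% and 73.5% of WT. Oasl1, in contrast, was level at 9.19 and 9.14 CPM, or 99.4% (71.6% to 138%), and Ifi35 was at 93.8% (78.0% to 113%). Oasl2 was at 74.7% (56.1% to 99.3%), Oas3 at 81.7% (61.7% to 108%) and Irf1 at 87.0% (76.0% to 99.5%).

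Of the 18 members lower in all 3 fed pairs, 17 were also lower in the unlabelled pair. All 10 members whose fed groups did not overlap were below 100% of WT, 6 of them with an interval wholly below it. The counts of lower members lie near the share of all tested members in this pair, 37 of 41 (90.2%). Shares of all genes with the same fed order were not computed.

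**Figure D4:**
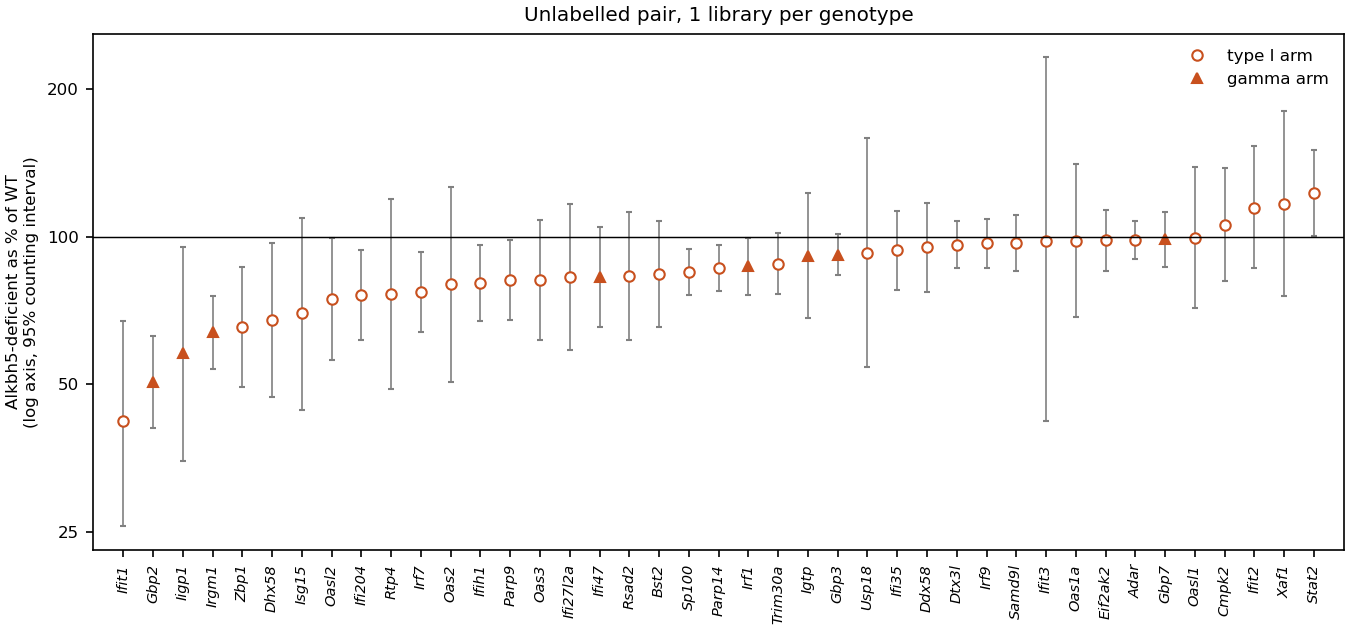
Level in the unlabelled Alkbh5-deficient library as a percentage of the unlabelled WT library, on a log axis, for the 41 tested members in rising order; bars are 95% counting intervals, filled triangles the gamma arm and open circles the type I arm. Values lie below 100% for 37 members, and Ifit1 and Gbp2 are lowest of their arms at 42.0% and 50.6%.

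Members grouped by promoter match gave similar values. Among members with a response element match, 16 of 17 tested were negative in the fed genotype comparison, with a median log2 fold change of -0.40. Among those with a window but no match, 10 of 14 were negative with a median of -0.27, and among those without a window 9 of 10 were negative, with a median of -0.36. No difference between these groups was tested.

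The pathway outside the 43 members was read from 92 further genes, of which 86 were in the files and 78 were tested. None was called by edgeR, and 5 had an unadjusted p under 0.05, against 1.13% of all genes tested. Interferon transcripts themselves were scarce, and 0 of the 6 ligands in the files passed the low-count filter: Ifng had 45 counts over all 8 libraries, Ifnb1 8, Ifnk 5, Ifna2 and Ifna4 1 each and Ifna1 0. Receptors and their kinases had 3 of 9 negative values (median 0.10), other transcription factors 2 of 6 (0.14), sensing and adaptor genes 3 of 13 (0.12) and negative regulators 3 of 7 (0.04). The signalling inhibitor gene Socs3 gave -0.43 ± 0.18 (edgeR adjusted p = 1.00).

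Genes downstream of interferon had negative medians, though not in every pair. Antigen processing genes were negative in 12 of 12 cases, with a median of -0.25, but their pair medians were -0.16, 0.05 and -0.59, so pair 3 carried most of the difference. H2-K1, a class I presentation molecule, was at 841, 765 and 1096 CPM in WT and 667, 749 and 559 CPM in Alkbh5-deficient fed libraries (-0.46 ± 0.19, edgeR adjusted p = 1.00). Of 31 other interferon-induced genes, 22 were negative, with a median of -0.22 and pair medians of -0.20, -0.15 and 0.04. Ube2l6, the conjugating enzyme for ISG15, gave -0.52 ± 0.19 (edgeR adjusted p = 1.00), and Lgals3bp gave -0.48 ± 0.18 (edgeR adjusted p = 1.00).

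Markers of other cells that the cultures could hold were read in the same fit, and none was called. T and NK cell markers, all 14 above 0 in every library, summed to 227 to 493 CPM in WT fed and 219 to 339 CPM in Alkbh5-deficient fed libraries, with 11 of 12 tested negative (median -0.29). The highest sum, in WT fed replicate 1, was mostly Gzmb, at 380 CPM, and the median deviation of these markers (log2) was 0.14 there against 0.57 in WT fed replicate 2. Plasmacytoid dendritic cell markers, 7 of 8 above 0 in every library, summed to 156 to 224 and 150 to 210 CPM, with 4 of 7 negative (median -0.52). Monocyte and macrophage markers, all 10 above 0 in every library, summed to 1627 to 4280 and 2077 to 4992 CPM, with 9 of 10 positive (median 0.39). B cell markers, all 8 above 0 in every library, summed to 49.7 to 216 and 21.8 to 170 CPM, with 5 of 8 negative (median -0.16) and pair medians of -1.29, -0.55 and 0.55. Progenitor markers, at 4596 to 8589 and 5651 to 8666 CPM, had a median of -0.01. The part of these cells in the member differences was not tested.

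The s4U comparison asks whether feeding the nucleoside and the sequencing of labelled RNA go with different levels, using all 8 libraries and genotype as a covariate. By edgeR, 0 of 42 members were called, against 0.0267% of 14988 genes. An unadjusted p under 0.05 was reached by 6 members in edgeR, against 19.6% of all genes. DESeq2 called 0 members, against 6.24% of the 8921 genes that had an adjusted p. Some members, among them Ifit1 and Isg15, had no adjusted p there. In DESeq2, 5 members reached an unadjusted p under 0.05, and the share of all genes was not computed. The fitted log2 fold change (fed over unlabelled) was positive for 27 and negative for 15, with a median of 0.07 beside 0.03 over all genes. Feeding with s4U was thus not accompanied by a called difference in any member.

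The 6 smallest p-values were divided by direction. Ifih1 was at 33.5 and 27.0 CPM without s4U in WT and Alkbh5-deficient cells and between 16.7 and 27.7 CPM in the fed ones, a log2 fold change of -0.52 ± 0.16 (edgeR adjusted p = 0.171). Samd9l gave -0.76 ± 0.28 (edgeR adjusted p = 0.201), Eif2ak2 -0.54 ± 0.20 (edgeR adjusted p = 0.197) and Parp9 -0.40 ± 0.17 (edgeR adjusted p = 0.235). On the other side, Dhx58 gave 0.83 ± 0.30 (edgeR adjusted p = 0.200) and Bst2 0.76 ± 0.29 (edgeR adjusted p = 0.206). Summed exon lengths of the 4 lower genes were 4.87 to 8.17 kb and those of the 2 higher genes 0.903 to 3.27 kb. Over all members, the median exon length was 3.56 kb for the 27 higher and 5.39 kb for the 15 lower. The same split over all genes was not computed, so it cannot be read as particular to the members.

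The unlabelled libraries held transcripts of both sexes, whereas each fed library held more than 2 counts of only 1 of Xist and Ddx3y. They had 9147 and 299 counts in unlabelled WT and 8770 and 511 in unlabelled Alkbh5-deficient cells. A mix of sexes and the absence of s4U cannot be told apart in this comparison. The interaction of genotype and s4U, which tests whether the genotype difference was the same in fed and unlabelled cells, was called by edgeR for 0 of 42 members and 0% of 14988 genes. It reached an unadjusted p under 0.05 for 0 members and 0.16% of genes, and DESeq2 called 0 members, with 0 at an unadjusted p under 0.05. With 1 unlabelled library per genotype, this does not show that the differences were equal. On simulated counts the same fit recovered 0% of true log2 differences of 1 or of 2.

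**Figure D5:**
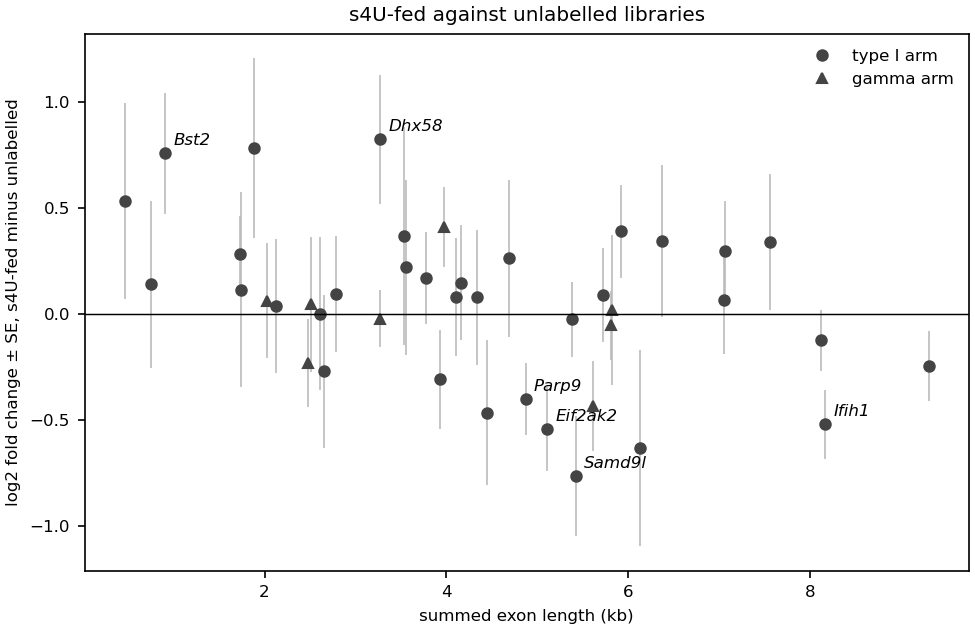
Log2 fold change of the 42 tested members in fed over unlabelled libraries, with 1 standard error, against summed exon length in kilobases; circles are the type I arm and triangles the gamma arm. The 6 named genes have the smallest p-values, and Dhx58 and Bst2 lie above 0 at 3.27 and 0.903 kb.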

How the data were processed

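Each deposited file holds gene read counts for 1 library, as whole numbers without normalization, per the labels. The tools named in the submitters' processing notes are HTSeq, HISAT2, STAR, cutadapt, Picard and DESeq2, with the builds mm10 and GRCm38. Their versions and roles, like the strand setting of the counting, were not stated. Files list 27710 genes and 928 entries naming no gene. These entries, of which reads in no gene made up 37.6% to 52.1% of all counts, stayed out of library sizes and tests.

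Counts were tested with edgeR 4.0.16 (limma 3.58.1, R 4.3.3): TMM scaling, filterByExpr, a robust quasi-likelihood test, and a threshold of 0.05 on Benjamini-Hochberg p-values over all tested genes. The 6 fed libraries gave the genotype contrast, and all 8 gave the s4U and interaction contrasts. DESeq2 1.42.0 was an alternative. Standard errors are the log2 fold change divided by the root of F. CPM were TMM-scaled over 8 libraries, and exon lengths came from GENCODE M21. Intervals of the unlabelled pair are exact (Clopper-Pearson) at 95%. The fits were tested on simulated counts, with changes placed only in genes above a set mean CPM. In these counts, 100 genes were changed by a log2 difference of 1 and 100 by 2. The genotype fit recovered 23% and 90% of them, the s4U fit 48% and 98% and the interaction fit 0% and 0%. Unchanged genes called numbered 8, 8 and 0.

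Deviations from the group means correlated at r = 0.68, 0.29 and 0.19 in the 3 same-numbered pairs, all above 0.1, so the numbers were taken as pairs. Replicates 2 and 3 were not told apart by this check, since WT 2 with Alkbh5-deficient 3 gave 0.35 and WT 3 with Alkbh5-deficient 2 gave 0.35, and over the members alone pair 2 gave -0.05. The labels give only the numbers. Members, lists and promoter motifs were chosen with earlier results of these data known. Named in full were the 8 members with the smallest genotype p, the 8 with the highest RPKM and the 6 with the smallest s4U p, and up to 3 genes of each pathway list by p; others were named for their role. Base conversions were not analysed here.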

Additional observations from a re-analysis of the deposited data

How the results depend on the processing

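No alternative gave a called member in the genotype contrast (0 in 16 alternatives), the s4U contrast (0 in 13) or the interaction (0 in 11). Over all genes, the genotype contrast called 1 and called 2 with DESeq2 and with no low-count filter, and 1 whichever library was left out. The s4U contrast called 4 genes, 557 with DESeq2, 37 with no low-count filter, and 0 to 2 when single libraries were left out. The cause was not tested. The member median (-0.37) ranged from -0.40 to -0.22, the type I median (-0.36) from -0.42 to -0.15 and the gamma median (-0.41) from -0.58 to -0.23, with the fits that left out libraries setting each range. Between 27 and 37 members were negative. Members at an unadjusted p under 0.05 numbered 6 (1.13% of all genes), but 1 without Alkbh5-deficient fed replicate 3 (0.43%), 3 without Alkbh5-deficient fed replicate 1 (1.27%) or WT fed replicate 3 (0.90%), and 10 without WT fed replicate 2 (3.51%). The fit with the replicate block changed no call: it called 1 gene and 0 members, with a median of -0.37, 34 negative members and 9 at an unadjusted p under 0.05 (2.65% of all genes).

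Ifi27l2a turned to 0.012 with the replicate block and ranged from -0.58 to 0.24 when libraries were left out. Sp100 turned to -0.052 in the additive fit over 8 libraries and ranged from -0.28 to 0.36, Dtx3l from -0.10 to 0.33 and Gbp3 from -0.17 to 0.038. Leaving out both libraries of a number, and the counts without doubted libraries, were added after seeing the data. Total counts limit Ifit3, Ifit3b and Ifi44 most.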

Other observations

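The members varied among replicates about as much as other genes. The median biological coefficient of variation fitted by edgeR was 0.26 over the members and 0.24 over all genes, lowest for Gbp3 at 0.157 and highest for Zbp1 at 0.466. The highest fed library exceeded the lowest of the same genotype by a median of 1.79-fold in WT and 1.5-fold in Alkbh5-deficient cells. A ratio above 2 was seen for 14 members in WT and 6 in Alkbh5-deficient cells. These ratios were not computed over all genes.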
